A study of Mus musculus with 2 samples.

Results

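The miR-30 family comprised 6 microRNA (miRNA) genes, Mir30a, Mir30b, Mir30c-1, Mir30c-2, Mir30d and Mir30e, of the 2202 miRNA genes counted, chosen by name and by their place in 3 clusters of 2 genes. Small RNAs came from hippocampus of female B6CASTF1/J mice, F1 hybrids of a common laboratory strain with a castaneus-derived strain, aged 2 months and given no named treatment. There was 1 group of 2 libraries, labelled as biological replicates 1 and 2, whose tissue records differ but name the same donor entry. Nothing in the labels says that separate animals were used, so a difference between these libraries may be technical. The p-values below set such a difference against counting error only, not against a spread between animals. Replicate 1 held 4517648 and replicate 2 held 5979247 sense counts on miRNA genes. Levels are given as CPM, counts per 1000000 of these, and a count of 0 allows up to 0.664 and 0.502 CPM in replicates 1 and 2. Intervals and floors cover counting error only.

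A miRNA gene is transcribed into a hairpin that is cut into a duplex of a 5p and a 3p arm, and the arm loaded into an Argonaute protein pairs with messenger RNAs mainly through its seed, bases 2 to 8. The miR-30 genes share the seed of their 5p arm, so their predicted targets overlap widely. The family is known for repressing the autophagy gene BECN1 in human cells and, in human and mouse brain, the neurotrophin gene Bdnf, whose product supports synaptic plasticity in hippocampus. The deposited counts are per gene, so the arms were not separated.

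The 5p arms are shown because the family is defined by them. Sequences are those of RefSeq on GRCm38.p6, which held 4 of the 6 members. Mir30b and Mir30d had no entry. Capitals mark the seed, and miR-384-5p is included as the remaining mouse miRNA of that table with the same seed.
miR-30a-5p: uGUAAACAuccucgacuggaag
miR-30e-5p: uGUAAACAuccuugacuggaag
miR-30c-5p: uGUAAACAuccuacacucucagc
miR-384-5p: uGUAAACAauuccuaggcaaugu
The miR-30 arms shown start with the same 12 bases, uguaaacauccu, and miR-384-5p shares the first 8 of them. miR-30a-5p and miR-30e-5p differ by the single substitution C13U, and their 3p arms by G18A, with positions counted from 1 at the 5′ end of the arm and the base of miR-30a first. From miR-30a-5p, miR-30c-5p differed at 5 of 22 positions.

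Mir30c-1 and Mir30c-2 both give miR-30c-5p, known in mouse liver for repressing the lipid transfer gene Mttp. Their hairpins are shown because a read from the shared stretch, in capitals, cannot be placed in 1 of them.
Mir30c-1, chr4:120769534-120769622, minus strand: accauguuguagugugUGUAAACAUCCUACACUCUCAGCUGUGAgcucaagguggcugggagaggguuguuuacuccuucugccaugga
Mir30c-2, chr1:23291701-23291784, plus strand: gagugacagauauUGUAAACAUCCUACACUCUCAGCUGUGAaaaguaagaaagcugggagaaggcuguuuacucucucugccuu
The stretch of 28 bases holds the whole 5p arm, whereas the 3p arms differed at 3 of 22 positions. The deposited tables assign no gene to reads with several mapping places, which were 45.9% of replicate 1 and 48.4% of replicate 2, so the counts of Mir30c-1 and Mir30c-2 are uncertain and leave out reads that lie within the stretch. The longest stretch that the hairpins of Mir30a and Mir30e shared with any other miRNA hairpin of RefSeq was 18 bases, and each was the other's match. Mir30b and Mir30d were left out of this comparison, so whether their counts lack reads in the same way is not known. The sources used here do not state how many mismatches the authors' mapping allowed or how it treated castaneus alleles.

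The clusters lay on chromosomes 15, 1 and 4, with positions in the mm10 build and the GENCODE M21 annotation. On chromosome 15, Mir30d (chr15:68341208-68341289, in an exon of the long non-coding gene Gm20732) and Mir30b (chr15:68337415-68337510, outside any gene on its strand) were 3697 bases apart on the minus strand. On chromosome 1, Mir30a (chr1:23272269-23272339, outside any gene on its strand) and Mir30c-2 (in an exon of the long non-coding gene Gm27028) were 19361 bases apart on the plus strand. Mir30e (chr4:120772606-120772697) and Mir30c-1 were 2983 bases apart in introns of Nfyc, which codes for a subunit of the CCAAT-binding factor NF-Y. Mir30e is covered on its whole length by Mir30f on the other strand. Mir30f had 0 sense counts in both libraries.

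Each cluster held 1 abundant gene, with at least 3145 CPM in each library, and 1 scarce gene, with at most 267 CPM. Mir30d, whose 5p arm is known with that of Mir30b for repressing the glycosyltransferase gene GALNT7 in human melanoma, had 14473 counts (3204 CPM, 95% Wilson interval 3152 to 3256) in replicate 1 and 38607 counts (6457 CPM, 6393 to 6521) in replicate 2. Mir30a, the gene of the arm tied to BECN1 and Bdnf, had 15657 counts (3466 CPM, 3412 to 3520.4) in replicate 1 and 29318 (4903 CPM, 4848 to 4959.6) in replicate 2. Mir30e had 20889 counts (4624 CPM, 4562 to 4687) in replicate 1 and 18805 (3145 CPM, 3100.5 to 3190.2) in replicate 2. Replicate 2 was thus the higher library for Mir30d and Mir30a, and replicate 1 for Mir30e. The order of these 3 genes was opposite in the libraries, with Mir30e highest in replicate 1 and Mir30d highest in replicate 2.

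Their partners were scarce. Mir30c-2 had 1207 counts (267 CPM) in replicate 1 and 1408 (235 CPM) in replicate 2. Mir30c-1 had 744 counts (165 CPM) and 909 (152 CPM), and Mir30b had 531 (118 CPM) and 849 (142 CPM), in replicates 1 and 2. Replicate 1 was the higher library for both Mir30c genes and the lower one for Mir30b.

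**Figure D1:**
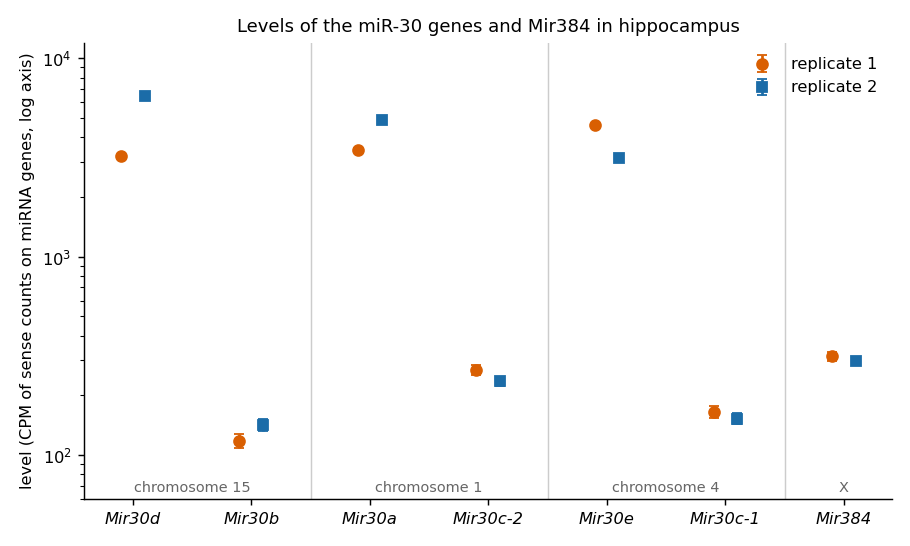
Level of each miR-30 gene and of Mir384 in each library, in CPM on a log axis, with partners side by side by chromosome. Circles are replicate 1 and squares replicate 2, and bars are 95% Wilson intervals. Mir30d, Mir30a and Mir30e lie between 3145 and 6457 CPM, and the other members between 118 and 267 CPM.

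By mean CPM the order was Mir30d at 4830.2 ± 2300.3 (SD, n = 2), Mir30a at 4185 ± 1017, Mir30e at 3884 ± 1046, Mir30c-2 at 251 ± 22.4, Mir30c-1 at 158 ± 8.95 and Mir30b at 129.8 ± 17.3. Neighbours among the first 3 differed by less than their SD. In replicate 2 the intervals of Mir30c-1 (142 to 162 CPM) and Mir30b (133 to 152 CPM) overlapped. Per 100 bases of hairpin, the means of Mir30a and Mir30d were nearly equal, at 5894 and 5891 CPM, and that of Mir30e was 4222 CPM. On that scale Mir30c-2, Mir30c-1 and Mir30b followed at 299, 178 and 135 CPM. Within the libraries Mir30a was above Mir30d per 100 bases in replicate 1 (4881 and 3907 CPM) and below it in replicate 2 (6906 and 7874 CPM). Among all 2202 genes Mir30d, Mir30a and Mir30e ranked 36, 41 and 47 by mean CPM, Mir30c-2 160, Mir30c-1 184 and Mir30b 189.

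Together the 6 genes held 1.18% of the counts in replicate 1 (95% Wilson interval 1.17 to 1.19) and 1.50% in replicate 2 (1.49 to 1.51), a mean of 1.34% ± 0.226 (SD, n = 2). Mir30a, Mir30d and Mir30e made up 95.4% of the family's counts in replicate 1 and 96.5% in replicate 2. All these shares are of reads placed in 1 gene, and those of the Mir30c genes leave out reads within their shared stretch. They therefore do not measure how much miR-30c-5p the tissue held. Mir30e held 39.0% of the family in replicate 1 and 20.9% in replicate 2, whereas Mir30d held 27.1% and 42.9% and Mir30a 29.3% and 32.6%. By cluster, the chromosome 4 genes held 40.4% of the family in replicate 1 and 21.9% in replicate 2. The chromosome 15 genes held 28.0% and 43.9%, and the chromosome 1 genes 31.5% and 34.2%. By these counts the leading cluster was the one on chromosome 4 in replicate 1 and the one on chromosome 15 in replicate 2.

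**Figure D2:**
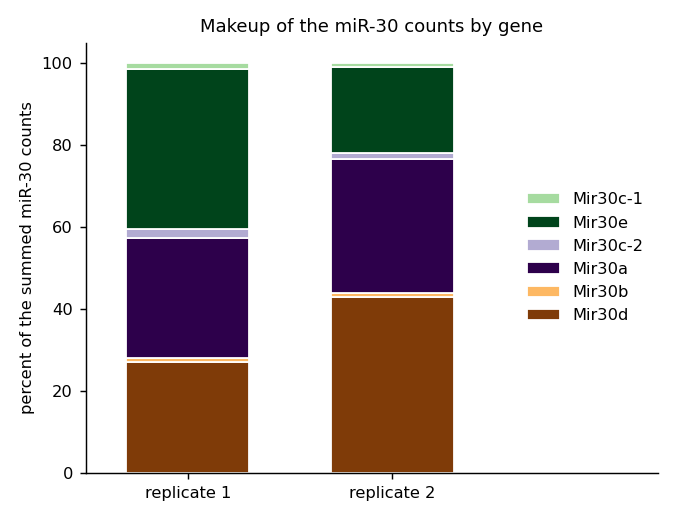
Share of each gene in the summed miR-30 counts, in percent, for replicate 1 (left bar) and replicate 2 (right bar). The counts of Mir30c-1 and Mir30c-2 leave out reads within their shared stretch. Mir30e takes 39.0% of replicate 1 and 20.9% of replicate 2, and Mir30d 27.1% and 42.9%.

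Next, each member was compared between the libraries to ask whether the difference exceeded the counting error. Each of the 420 genes that reached 10 counts in each library was set against all other sense counts by Fisher's exact test, two-sided, with Benjamini-Hochberg adjustment over these genes and a threshold of 0.05. It compares these libraries and no condition. All 6 members could be tested, and 5 differed, beside 56.9% of all genes tested. Of the 93 genes at 1000 CPM or more, 94.6% differed, so a call at the level of Mir30d, Mir30a and Mir30e was close to the background. Mir30e and Mir30c-2 were higher in replicate 1, as were 29.8% of genes tested, and Mir30d, Mir30a and Mir30b were lower, as were 27.1%. Ratios put replicate 1 over replicate 2 and were taken as differences of log2(CPM + 0.5). The median log2 ratio was -0.08 over the members and 0.07 over all genes tested.

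Mir30d was 2.02-fold lower in replicate 1, a log2 ratio of -1.01 (95% exact binomial interval -1.04 to -0.98), with an adjusted p by Fisher's exact test too small to be written as a number. A difference as large or larger was seen in 41 of the 420 genes and in 8 of the 93 genes at 1000 CPM or more, Mir30d included. Mir30a was 1.41-fold lower in replicate 1, at a log2 ratio of -0.50 (-0.53 to -0.47; adjusted p = 1.6e-277, Fisher's exact test). In the other direction, Mir30e was 1.47-fold higher in replicate 1, at 0.56 (0.53 to 0.58), also with an adjusted p too small to be written. The 93 genes had a median difference of 1.19-fold, and 26 of them differed as much as Mir30a and 20 as much as Mir30e.

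The scarce members differed less. Mir30b had a log2 ratio of -0.27 (-0.43 to -0.11; adjusted p = 0.0014, Fisher's exact test) and Mir30c-2 one of 0.18 (0.07 to 0.29; adjusted p = 0.0030). Mir30c-1 did not pass, at 0.12 (-0.03 to 0.26; adjusted p = 0.169, Fisher's exact test).

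**Figure D3:**
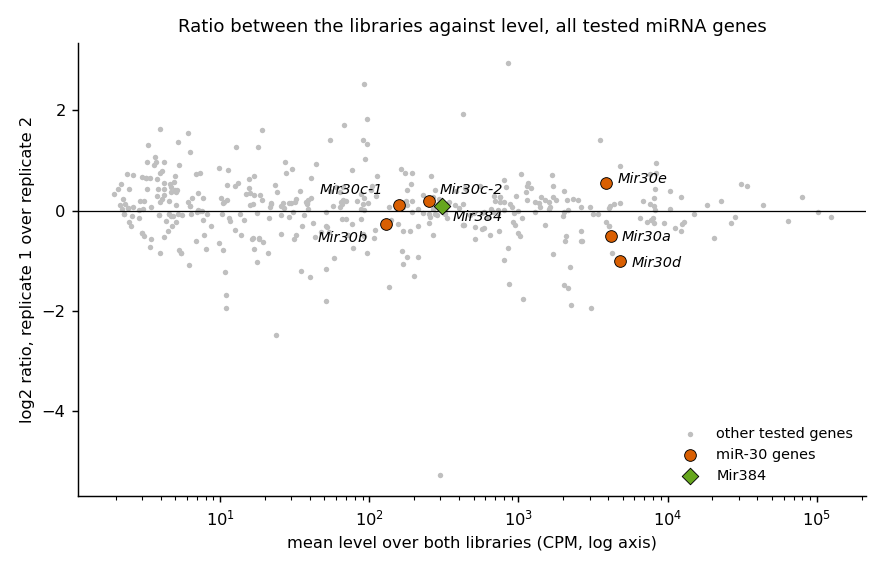
Log2 ratio of replicate 1 over replicate 2 against mean level in CPM on a log axis, for the 420 tested genes. Large circles are the miR-30 genes, the diamond is Mir384 and small grey points are other genes. Mir30e lies at 0.56, Mir30a at -0.50 and Mir30d at -1.01.

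The summed miR-30 counts had a log2 ratio of -0.34 (95% exact binomial interval -0.36 to -0.33), although the clusters went in opposite directions. The genes of chromosome 15 had a summed log2 ratio of -0.99, those of chromosome 1 of -0.46 and those of chromosome 4 of 0.54. The 3 genes at 1000 CPM or more whose log2 ratio lay closest to that of the summed family were Mir151 (-0.34), Mir100 (-0.31) and Mirlet7f-2 (-0.31), within 0.04 of it. Mirlet7f-2 shares a stretch of at least 20 bases with another miRNA locus, so its counts are uncertain, and this likeness rests on 2 libraries. The miRNA markers listed for neurons (Mir128-1, Mir137, Mir138-1 and Mir132) were all present and summed to 42469 CPM in replicate 1 and 47687 CPM in replicate 2. Of these, only Mir132, known to be induced by neuronal activity, was lower in replicate 1 (16627 CPM, against 24242 CPM in replicate 2), whereas Mir128-1 (13444 and 11179 CPM) and Mir138-1 (4119 and 3992 CPM) were higher and Mir137 was level (8278 and 8274 CPM). Those of red cells summed to 73.3 and 121 CPM, those of endothelium to 11285 and 13591 CPM, and the marker of choroid plexus, Mir204, stood at 842 and 1152 CPM. All 7 marker lists, with those of oligodendrocytes (6526 and 6974 CPM), mural cells (7938 and 8734 CPM) and microglia or leukocytes (1099 and 1192 CPM), had a lower sum in replicate 1, as the summed miR-30 counts did, but of their 15 genes 8 were lower and 7 higher in replicate 1. In the lists of neurons, oligodendrocytes, mural cells and microglia or leukocytes a single gene (Mir132, Mir219a-2, Mir143 and Mir150) was lower and the others were level or higher. Mir128-1, Mir138-1 and Mir219a-2 have further genes of the same name, Mir128-2, Mir138-2 and Mir219a-1. Reads that map to more than 1 such gene would be left out of their counts, which was not examined. The part of the markers in the result was not tested. In bulk tissue fewer cells of a type and less RNA per cell cannot be told apart.

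Partners were compared by the ratio of their counts, which needs no scaling between libraries. Mir30d had 27.3 counts per count of Mir30b in replicate 1 (95% exact interval 25.0 to 29.8) and 45.5 in replicate 2 (42.5 to 48.7). The ratio of Mir30a to Mir30c-2 was 13.0 in replicate 1 (12.2 to 13.8) and 20.8 in replicate 2 (19.7 to 22.0). Mir30e to Mir30c-1 had a ratio of 28.1 in replicate 1 (26.1 to 30.2) and 20.7 in replicate 2 (19.4 to 22.1). In every cluster the abundant partner differed more between the libraries than the scarce one. The ratio was lower in replicate 1 on chromosomes 15 and 1 and higher in replicate 1 on chromosome 4. On chromosome 1 the partners themselves went in opposite directions, with Mir30a lower and Mir30c-2 higher in replicate 1.

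Of 118 pairs of consecutive tested genes within 50 kb on 1 strand, 66.1% had a ratio that differed between the libraries by Fisher's exact test adjusted over these pairs, and so had the 3 miR-30 pairs. The log2 change of the ratio, replicate 1 over replicate 2, was -0.74 for Mir30d over Mir30b (95% interval -0.90 to -0.58; adjusted p = 2.1e-18, Fisher's exact test). It was -0.68 for Mir30a over Mir30c-2 (-0.80 to -0.57; adjusted p = 1.9e-30) and 0.44 for Mir30e over Mir30c-1 (0.30 to 0.58; adjusted p = 3.0e-09). Changes as large were seen in 42, 45 and 62 of the 118 pairs, so the miR-30 pairs lay within the usual spread of neighbours. Uneven partners were also common, with a median gap in level of 6.48-fold over the 118 pairs. A gap as large as that of Mir30d and Mir30b was seen in 16 pairs. For Mir30a and Mir30c-2 the number was 39, and for Mir30e and Mir30c-1 it was 29. Mir30c-1 and Mir30c-2, which share their 5p arm and lie on different chromosomes, had a ratio of 0.616 in replicate 1 and 0.646 in replicate 2, a log2 change of -0.07 (-0.25 to 0.11). Both counts leave out reads within the shared stretch, so that ratio is of the remaining reads. Among the 15 possible pairs of members, Mir30c-1 with Mir30c-2 was the only one whose interval held 0. At the other end, Mir30d over Mir30e was 0.693 in replicate 1 and 2.05 in replicate 2, a 2.96-fold change.

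**Figure D4:**
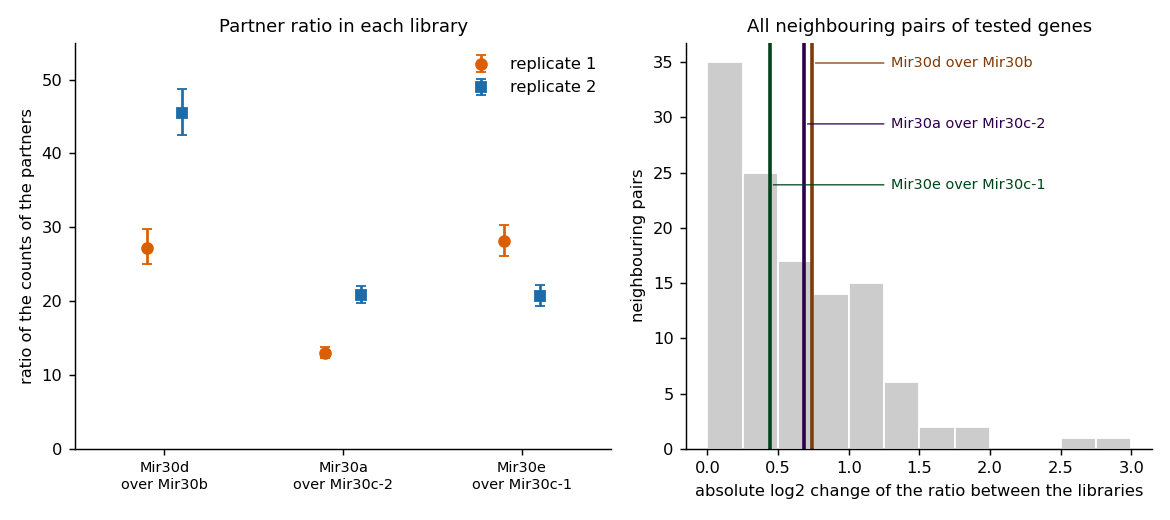
Left, the ratio of the counts of the partners of each cluster in replicate 1 (circles) and replicate 2 (squares), with 95% exact intervals. Right, the absolute log2 change of that ratio between the libraries for 118 neighbouring pairs, as a histogram, with lines at the miR-30 pairs, which lie at 0.74, 0.68 and 0.44.

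Because Mir30c-1 and Mir30c-2 have copies, their low counts were set beside other clusters in which 1 partner has a run of at least 20 bases in common with another miRNA locus and the other has none. In 24 such pairs outside the family, the partner without a copy had more counts in both libraries in 16 and fewer in both in 8. The median ratio of the partner without a copy to the copied one was 6.07 in replicate 1 and 3.42 in replicate 2, against which Mir30a over Mir30c-2 and Mir30e over Mir30c-1 stood at 13.0 and 28.1 in replicate 1 and 20.8 and 20.7 in replicate 2. The other pairs varied widely. In replicate 1 the log2 of this ratio ran from -7.72 for Mir670 over Mir129-2 to 14.7 for Mirlet7g over Mir135a-1. The miR-30 pairs, at 3.70 and 4.81, lay within that range. Some genes enter 2 of these pairs. How much of the low counts of the Mir30c genes comes from reads placed nowhere was not tested.

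Mir384 on chromosome X (chrX:105344282-105344369), which lies outside any gene on its strand and whose 5p arm has been tied to the upkeep of synaptic potentiation in rodent hippocampus, carries the same seed. It had 1424 counts (315 CPM, 299 to 332) in replicate 1 and 1777 counts (297 CPM, 284 to 311) in replicate 2, above Mir30c-2 in each. Reads within the stretch shared with Mir30c-1 are left out for Mir30c-2, whereas Mir384 shared at most 11 bases with another RefSeq hairpin. The log2 ratio of Mir384, 0.08 (-0.02 to 0.19), did not pass (adjusted p = 0.161, Fisher's exact test). The 6 members and Mir384 together held 1.22% of counts in replicate 1 and 1.53% in replicate 2.

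The miR-181 family has the same layout, 6 genes in 3 clusters of 2. It held 0.543% of counts in replicate 1 and 0.528% in replicate 2, below the miR-30 family in each. The Mir181a and Mir181b genes have copies by the same rule, so their counts are uncertain. Of its genes 5 of 6 differed between the libraries, as in the miR-30 family. Beside these stand 56.9% of all genes tested and 94.6% of the 93 genes at 1000 CPM or more. The miR-181 clusters also went in different directions. Their summed log2 ratios were 0.47 for Mir181a-2 and Mir181b-2, -0.35 for Mir181a-1 and Mir181b-1 and -0.04 for Mir181c and Mir181d. That range was narrower than the -0.99 to 0.54 of the miR-30 clusters. Changes of the partner ratio lay between 1.14-fold and 2.12-fold, against 1.36-fold to 1.67-fold in the miR-30 clusters. The families' difference itself was not tested.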

How the data were processed

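Raw counts of reads per miRNA gene, as the authors deposited them, were used, in 1 table for each library on mm10 and GENCODE M21 per the deposited file notes. The sources used here name neither the aligner nor the trimming. The tables name no columns. The column with the larger total on genes was taken as the sense column, and the others as counts without regard to strand and antisense counts. Reads given to no gene stayed out of totals and tests: in replicates 1 and 2, 45.9% and 48.4% mapped to several places, 11.8% and 11.2% were unmapped and 3.60% and 3.69% lay outside the genes counted.

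All 2202 identifiers were found in GENCODE M21. Mature sequences matched 1018 genes by symbol, so copies over the whole table were found from GENCODE hairpins in place of mature sequences, leaving out Mir30b and Mir30d. Fisher's exact and binomial tests used SciPy 1.17.1. With 1 group of 2 libraries, edgeR's quasi-likelihood test has no condition to test, so edgeR 4.0.16 gave TMM factors and DESeq2 1.42.0 size factors as alternatives. The interval of a change of ratio is a Wald interval. The tests were checked on simulated data with counting error alone, which cannot show how they behave with further spread between libraries. The members and lists were chosen with earlier results of these data known. Named genes are the members, genes with their seed, the miR-181 genes and the 3 genes closest in log2 ratio. Alternatives were the strand column, count minimum, scaling, depth, pseudocount, denominator, hairpin length, partner distance and leaving out a replicate.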

Additional observations from a re-analysis of the deposited data

Results flagged for a closer look

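The antisense column, which no comparison used, held counts for Mir30f above the limit that a count of 0 allows, with 20889 in replicate 1 and 18805 in replicate 2. These equal the sense counts of Mir30e, whose positions Mir30f covers on the other strand, so they are the same reads seen from the other gene. Mir30f had 0 sense counts in both libraries.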

How the results depend on the processing

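In the column without regard to strand Mir30e is listed at 0 in both libraries, because its reads also overlap Mir30f. The family's share was then 1.04% in place of 1.34%, and its log2 ratio of replicate 1 over replicate 2 was -0.73 in place of -0.34. That ratio was -0.38 when scaled by TMM and -0.39 by DESeq2 size factors. Of all reads of the tables the family held 0.505%. Leaving out 1 replicate each gave shares from 1.18% to 1.50%, and no ratio. The members' calls and directions held under every alternative that gave a value, with 5 of 6 members called in each sense setting, as did the 3 partner changes. Called genes numbered from 200 of 270 tested, at a minimum of 100 counts, to 249 of 774 without a filter, beside 239 of 420. Their share of the genes tested thus varied with the count minimum. Called pairs numbered from 63 of 100, without regard to strand, to 79 of 122 within 100 kb, beside 78 of 118. The order of the means of Mir30d and Mir30a turned per 100 bases of hairpin, where these means were nearly equal. The partner change of Mir30a and Mir30c-2 gave no value within 10 kb, and Mir30e none without strand. No paired analysis was possible because there is 1 group. Depth limits the scarce members, as the interval of the log2 ratio shows, -0.43 to -0.11 for Mir30b and -1.04 to -0.98 for Mir30d.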
